A study of Mus musculus with 4 samples.

Results

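The genes described here encode the proteins of the cytosolic ribosome. They were chosen by symbol alone, as Rpl or Rps followed by a number and, where present, a closing a, x, l or l1, together with Rpsa, Rplp0, Rplp1 and Rplp2, among the symbols of the deposited rlog table. The rule found 79 genes of 9546 symbols, 48 of the large (60S) subunit and 31 of the small (40S) subunit. The count table held 85 genes whose symbols follow the rule. The remaining 6 were absent from the rlog table and had at most 9 counts over all libraries: Rpl3l and Rps12l1 had 0, Rpl10l had 1, Rpl6l had 3, Rpl39l had 7 and Rps4l had 9. All 79 members passed the minimum of 10 counts over the libraries that was set for testing.

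The data are 3′ mRNA sequencing of sorted splenic CD4+ T cells from mice that were Tg4 (a transgenic T cell receptor that recognises myelin basic protein peptide), Nr4a3-Tocky (a fluorescent Timer protein driven from Nr4a3, which reports recent receptor signalling) and Il10-GFP (a reporter of Il10 transcription). All mice received 4 mg/kg of [4Y]-MBP peptide subcutaneously, and cells were taken 24 h later. Both populations were sorted as Nr4a3-Timer+ and differed in the reporter, with 2 libraries of Il10-EGFP+ cells and 2 of Il10-EGFP- cells. The study asked which signals besides that of the T cell receptor shape Tr1 cells, regulatory CD4+ T cells that express Il10. It sorted these populations to check whether the Il10-EGFP+ cells were Tr1 cells. Neither untreated nor Timer- cells were analysed here, so the values compare activated cells with activated cells. The methods state that mice of both sexes were used and that a further replicate pair was left out as an outlier, which was not analysed here. The labels and the methods name different RNA extraction kits.

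A ribosome holds its proteins in near-equal number, and the cell makes them together with ribosomal RNA when it grows. T cells raise ribosome production as they leave quiescence after antigen recognition. The mRNAs of this family begin with a C followed by a run of pyrimidines, the 5′ terminal oligopyrimidine (TOP) motif, through which LARP1 and the mTORC1 kinase control their translation. mRNA counts do not measure that translational control.

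The start regions below show a pyrimidine run near the annotated start in selected members of both subunits. Rps4x, without such a run, is shown because it was the member with the clearest difference between the populations. Each region is a window of 30 bases on the gene's own strand, taken from RefSeq's sequences on GRCm38.p6. The longest run of a C followed by C or T only is in capitals.
Rpl27a: ttcgtgagCTCCTCCCTTTTCCCTTTCTgc
Rpl28: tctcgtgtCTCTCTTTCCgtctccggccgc
Rpl35: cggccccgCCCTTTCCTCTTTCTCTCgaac
Rps18: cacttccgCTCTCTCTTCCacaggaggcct
Rps6: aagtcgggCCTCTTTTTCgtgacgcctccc
Rps4x: gctgggcggagcaacccaggctccagcgcg
The windows lie at chr7:109519183-109519212 (plus strand) for Rpl27a, chr7:4792955-4792984 (plus) for Rpl28, chr2:39005117-39005146 (minus) for Rpl35, chr17:33955646-33955675 (minus) for Rps18, chr4:86857347-86857376 (minus) for Rps6 and chrX:102189372-102189401 (minus) for Rps4x. The run started 4, 2, 7, 2 and 1 bases before the annotated start in Rpl27a, Rpl28, Rpl35, Rps18 and Rps6, respectively. The Rps4x window holds 10 bases before its annotated start and 20 from it on, and no run of at least 6 bases was found from 30 bases before to 50 after that start.
RefSeq gave a start region for 59 of the 79 members, with 70 annotated starts. A run of at least 6 bases, a C followed by C or T only, lay within 30 bases before to 50 after 57 of the 70 starts (81.4%), against 49.4% of all 32851 start regions and 46.7% of the 9295 starts of the other genes tested. Read on the opposite strand, the same windows held such a run at 37.1% of the members' starts and 54.1% of all starts. By gene, 50 of the 59 members had a run at 1 or more starts, so Rps4x was not the only member without. A run in these letters is a description of the window. Neither its presence nor its absence shows where a transcript begins.

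The libraries held between 644679 and 730330 counts. Levels are given as CPM, counts scaled to a common library total with TMM factors. Where values of single libraries follow each other, replicates 1 and 2 of Il10-EGFP- cells come first, and those of Il10-EGFP+ cells follow after the word against. Each transcript gives tags only near its 3′ end, so these values were not divided by gene length. The sort was seen in Il10 itself, with counts of 0 and 0 against 29 and 41. All 10 markers of CD4 T cells that were listed were detected, with a summed level of 3867 and 3607 CPM against 4651 and 4285 CPM. Markers of B cells (12 of 12 detected) were higher in the Il10-EGFP+ libraries, at 143.9 and 221.8 CPM against 606.9 and 649.2 CPM, and 6 of the 10 tested were past the threshold. Myeloid markers summed to 71.9 and 106.5 CPM against 348.6 and 138.5 CPM, with 2 of 8 tested past the threshold and Adgre1 at 0 in every library. Markers of CD8 or NK cells summed to 26.9 to 51.1 CPM, with Klra8 and Ncr1 at 0. Those of erythroid cells and platelets summed to 160.2 and 143.0 CPM against 274.1 and 206.3 CPM, with 0 of 4 tested past the threshold.

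Ribosomal protein mRNA took overlapping shares of the counts in the 2 populations. The 79 genes held 7.77% (95% interval 7.71 to 7.83%) and 8.58% (8.51 to 8.65%) of the Il10-EGFP- counts, against 7.70% (7.63 to 7.76%) and 8.32% (8.25 to 8.38%) of the Il10-EGFP+ counts. The intervals are Wilson intervals and cover counting error only. The populations overlapped, since the 2 libraries of a population lay farther apart than the 2 means, 8.18% ± 0.572 (SD, n = 2) and 8.01% ± 0.438 (SD, n = 2). The difference of -0.167 percentage points gave an exact two-sided permutation p of 0.667, where the smallest p that 2 against 2 libraries allow is 0.333. Within replicate numbers the share differed by -0.0720 points in replicate 1 and -0.262 points in replicate 2, lower in Il10-EGFP+ cells in both, and the exact sign-flip permutation p of 0.5 is the smallest that 2 pairs allow. The large subunit genes took 3.99 and 4.45% against 3.96 and 4.40%, and the small subunit genes 3.78 and 4.13% against 3.74 and 3.92% of counts. The most counted genes of the series, Gm42418, mt-Rnr1 and mt-Rnr2, together took 12.3 and 10.4% against 14.0 and 12.7% of the libraries. With them left out of the totals, the members' share was 9.22% against 9.24%, a difference of 0.0218 points in the other direction. The libraries then gave 8.86 and 9.57% against 8.95 and 9.53%, so Il10-EGFP+ cells were higher in replicate 1 and lower in replicate 2. A share of counts is relative, and bulk samples do not separate transcripts per cell from the number of cells that hold them.

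**Figure D1:**
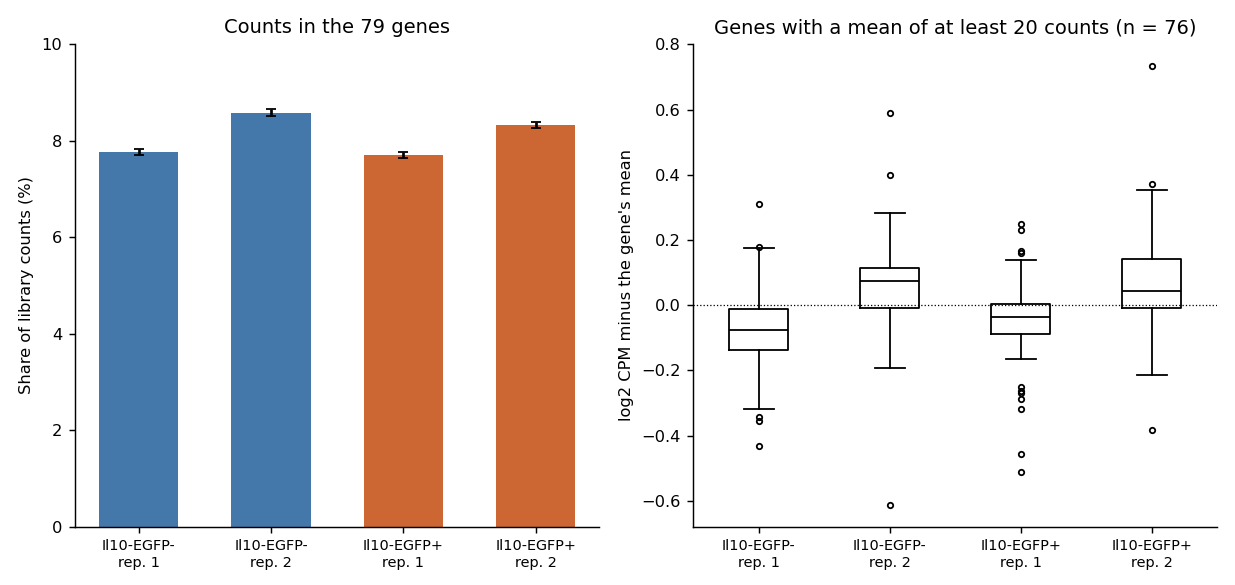
Left, percent of each library's counts in the 79 ribosomal protein genes, with Wilson 95% intervals. Right, box plots of log2 CPM in each library minus the gene's mean over the 4 libraries, for the 76 members averaging 20 counts or more (box, quartiles; whiskers, up to 1.5 times the box; points, genes beyond). Replicate 2 stands above replicate 1 in both populations, and the populations overlap.

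The members also differed between libraries of the same population. Between the 2 Il10-EGFP- libraries the median member was higher by 0.157 on the log2 scale in replicate 2, and between the 2 Il10-EGFP+ libraries by 0.121, against medians of 0.0166 and 0.0056 over the 4965 genes averaging 20 counts or more. Of the 79 members, 65 were higher in replicate 2 of Il10-EGFP- cells, 62 in replicate 2 of Il10-EGFP+ cells and 51 in both (64.6%, against 27.9% of the 4965 genes). The gap between libraries of a population (mean of both populations) was larger than the gap between populations for 62 members (78.5%), against 51.1% of the 4965 genes and 46.0% of the 533 genes averaging 200 counts or more. Its median size was 0.171 for the members and 0.258 for the 4965 genes, and the median size of the log2 fold change was 0.0861 and 0.249.

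Gene by gene, most members lay close to no difference. The log2 fold changes (Il10-EGFP+ over Il10-EGFP-) had a median of 0.0060, with 43 above and 36 below 0. The median was 0.0048 in the large and 0.0067 in the small subunit, against 2.54e-05 over the 9608 genes tested. The fold change was under 0.25 in size for 71 of the 79 members, which held for 39.2% of all genes tested and for 64.9% of the 533 genes averaging 200 counts or more. All 57 members averaging 200 counts or more were under 0.25. Standard errors had a median of 0.137, and the 95% interval lay wholly within 0.5 of 0, a change of at most 1.41-fold, for 60 members. These were 54 of the 57 members averaging 200 counts or more (94.7%, against 58.3% of all 533 such genes), while only 6 of the 22 members under that mean were measured that closely. On the authors' rlog scale the differences ran from -0.146 (Rps27a) to 0.426 (Rps4x), with a median of 0.0082.

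With edgeR's quasi-likelihood test and Benjamini-Hochberg adjustment over all 9608 genes, 1 member was higher in Il10-EGFP+ cells (Rps4x) and 0 were lower. Over all genes 226 were higher (2.35%) and 167 lower (1.74%). Among the 533 genes averaging 200 counts or more 67 passed the threshold (12.6%), and 0 of the 57 members at those levels did, also 0 at an unadjusted p under 0.05. DESeq2 and limma on the rlog values called 0 of the 79 members, with 1 and 5 at an unadjusted p under 0.05. In the edgeR fit 4 members were higher at an unadjusted p under 0.05 (7.96% of all genes) and 0 were lower (7.49% of all genes). The populations did not overlap in CPM for 15 members, 7 of them with the Il10-EGFP+ libraries higher (22.3% of all genes) and 8 with them lower (22.3% of all genes).

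**Figure D2:**
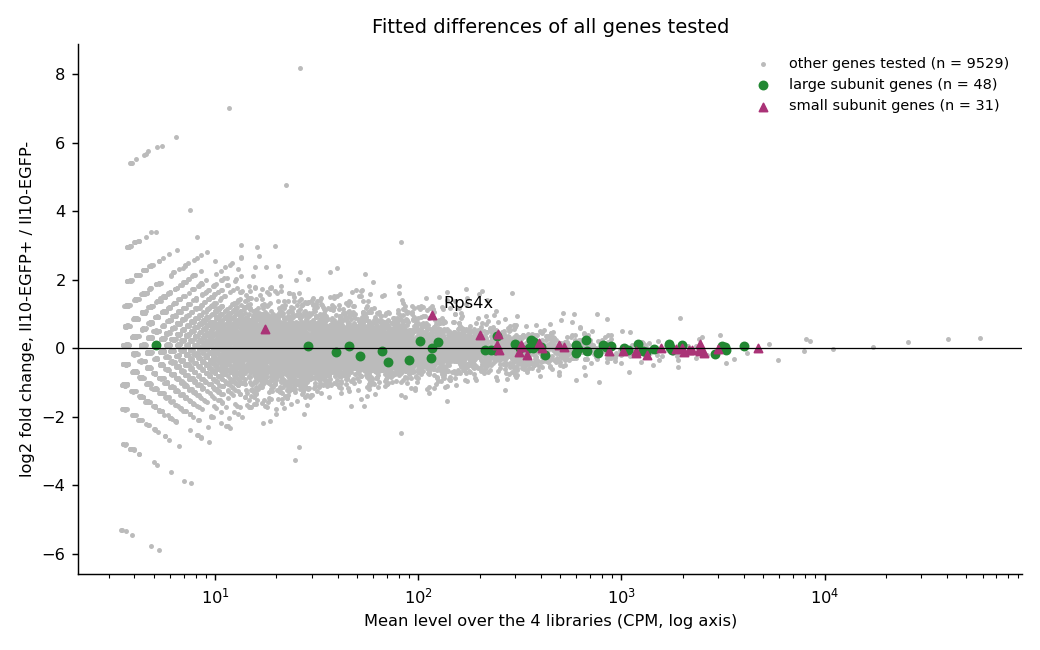
The log2 fold change of every gene tested against its mean level in CPM (log axis). Other genes are grey, large subunit genes are green circles and small subunit genes are purple triangles. Above 1000 CPM the 31 members lie near 0, and Rps4x stands apart at 0.98.

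Rps4x encodes a core protein of the small subunit and lies on the X chromosome (GRCm38 chrX:102184941-102189394, minus strand). It had 63 and 49 against 81 and 126 counts. These correspond to 85.5 and 71.5 CPM against 128 and 182 CPM, or 78.5 ± 9.91 against 155 ± 37.8 CPM (SD, n = 2 each). The populations did not overlap. The log2 fold change was 0.98 ± 0.22 (SE; 95% interval 0.54 to 1.42), which is 1.98-fold, with an edgeR adjusted p of 0.0030. Over the alternatives the log2 fold change ran from 0.43 to 1.21 and the adjusted p from 0.000283 to 0.397. The call was lost without Il10-EGFP+ replicate 2 (0.705, edgeR adjusted p = 0.183), which had the highest level of the 4 libraries, with DESeq2 (0.99, adjusted p = 0.112), with DESeq2 and a replicate block (0.97, adjusted p = 0.397) and with limma on the rlog values (0.43, adjusted p = 0.0723). Of the 50-base stretches in the last 200 bases of its transcripts, 40.4% also occur in another annotated gene, and those partner genes had 1 count in all. The other X-linked members gave log2 fold changes of 0.25 (Rpl39), 0.09 (Rpl36a) and -0.09 (Rpl10), with none past the threshold. Xist, chosen after its values were seen, had 478 and 405 against 402 and 467 counts (log2 fold change 0.08, edgeR adjusted p = 0.866), and of the Y-linked genes Ddx3y, Eif2s3y, Kdm5d and Uty the libraries held 1 count, of Uty. The summed B cell, myeloid, and erythroid and platelet markers given above were higher in the same libraries as Rps4x. Their part in this difference was not tested.

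The 95% interval lay off 0 for 4 members in all, among them Rpl21 and Rps18, which did not pass the threshold after adjustment. Rpl21, a large subunit protein, had 143 and 159 against 168 and 198 counts, a log2 fold change of 0.38 ± 0.17 (SE) with an edgeR adjusted p of 0.236. Rps18, whose start region is printed above, had 115 and 132 against 131 and 170 counts, a log2 fold change of 0.38 ± 0.18 (SE) with an edgeR adjusted p of 0.269. The populations did not overlap in CPM, and the nearest libraries of opposite populations lay at 232 and 266 CPM for Rpl21 and 193 and 208 CPM for Rps18.

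**Figure D3:**
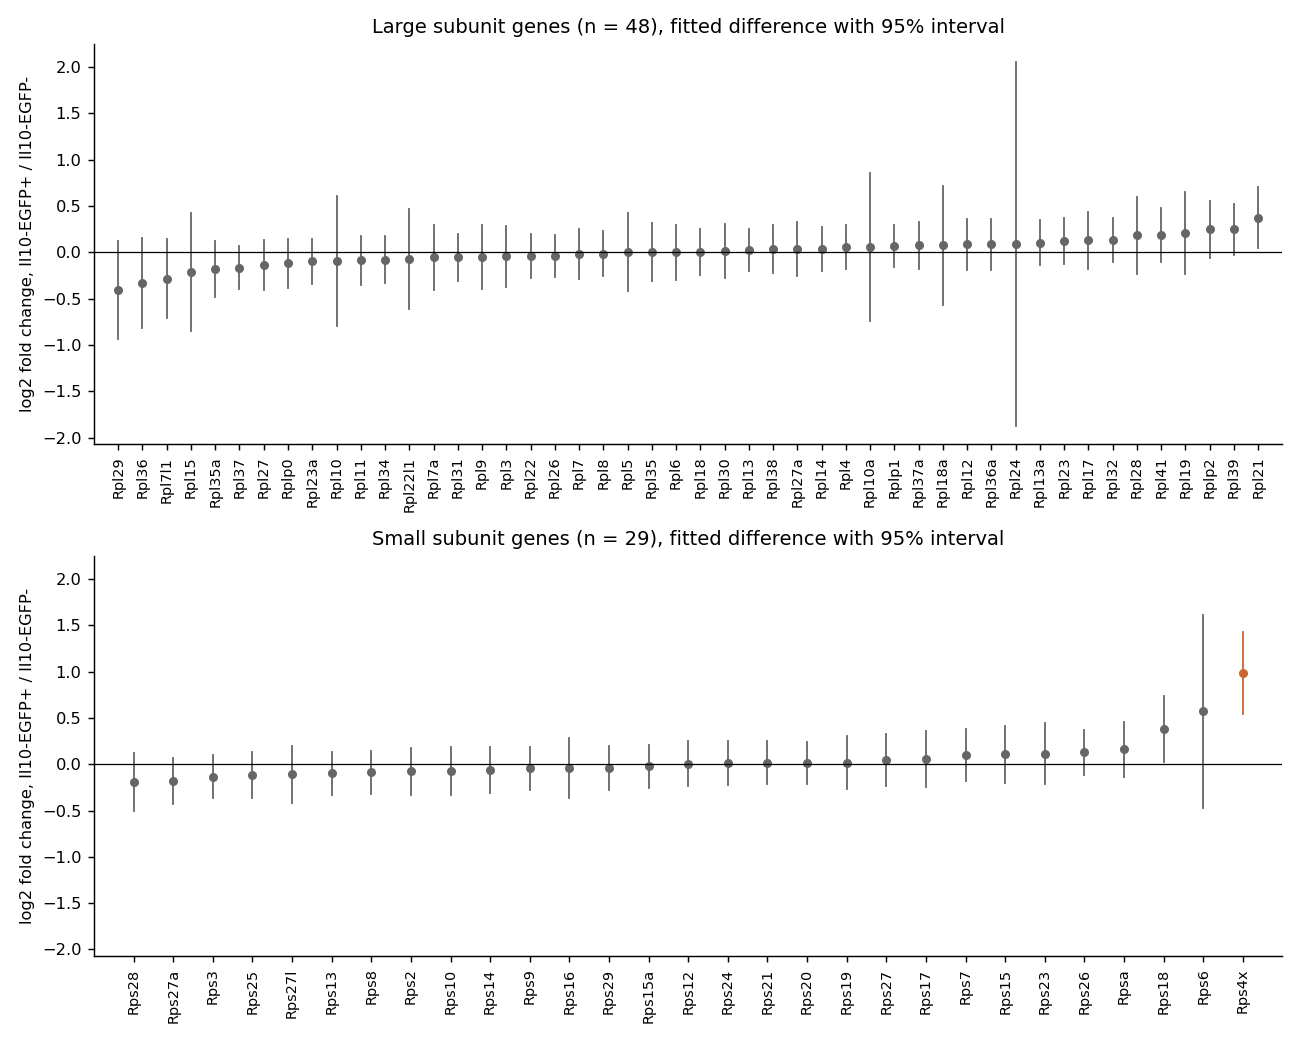
Fitted log2 fold change with its 95% interval for 77 members, ordered within each subunit. Rps4x, in orange, is the member past the threshold, and the intervals of Rps18 and Rpl21 also lie above 0.

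In the large subunit, levels spanned the range from Rpl4, which had 2653 and 2935 against 2266 and 3207 counts, down to Rpl24 with 2 and 5 against 3 and 4. Rpl4 gave 3942 ± 482 against 4109 ± 733 CPM (SD, n = 2 each), a log2 fold change of 0.06 ± 0.12 (SE). Rpl26, at 3300 ± 361 against 3214 ± 221 CPM, and Rpl13, at 3216 ± 281 against 3281 ± 17.5 CPM, gave log2 fold changes of -0.04 and 0.03. The populations overlapped in all 3 genes.
The largest positive log2 fold changes of the large subunit after Rpl21 were 0.25 for Rpl39, with 419 and 451 against 409 and 560 counts, and 0.25 for Rplp2, a protein of the acidic stalk that recruits elongation factors, with 227 and 241 against 209 and 312 counts. In both genes the populations overlapped, and edgeR's adjusted p was 0.393 and 0.476. Leaving out Il10-EGFP+ replicate 2 gave 0.08 for Rpl39 and 0.0069 for Rplp2 on the log2 scale. The largest negative log2 fold changes were -0.41 ± 0.26 (SE) for Rpl29 with 58 and 57 against 32 and 49 counts, -0.33 ± 0.24 for Rpl36 with 62 and 80 against 58 and 47 counts, and -0.29 ± 0.21 for Rpl7l1 with 104 and 76 against 69 and 68 counts. These are lightly counted genes, with edgeR adjusted p of 0.502, 0.568 and 0.582. In CPM the populations overlapped for Rpl36, at 84.2 and 117 against 91.9 and 67.8, and did not overlap for Rpl29 and Rpl7l1. With 1 library left out the log2 fold change ran from -0.67 (without Il10-EGFP+ replicate 2) to -0.19 (without Il10-EGFP+ replicate 1) for Rpl29, from -0.56 (without Il10-EGFP+ replicate 1) to -0.08 (without Il10-EGFP- replicate 2) for Rpl36 and from -0.44 (without Il10-EGFP- replicate 2) to -0.10 (without Il10-EGFP- replicate 1) for Rpl7l1.

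In the small subunit, Rps20 had the highest level of all members, with 3170 and 3491 against 2872 and 3430 counts. This gave 4698 ± 559 against 4750 ± 281 CPM (SD, n = 2 each) and a log2 fold change of 0.02 ± 0.11 (SE). Rps3, which also takes part in DNA repair, had 2690 and 2658 against 2611 and 2265 CPM, so that the populations did not overlap, with a log2 fold change of -0.13 ± 0.12 (SE) and an edgeR adjusted p of 0.654. Rps28 gave -0.19 ± 0.16, with 252 and 265 against 171 and 252 counts, and Rps27a, which is translated as a fusion with ubiquitin, gave -0.18 ± 0.12, with 937 and 1068 against 806 and 841 counts. For these genes edgeR's adjusted p was 0.617 and 0.527. In CPM the populations overlapped for both, with Rps27a at 1272 and 1558 against 1277 and 1213. Rps6, the substrate of S6 kinase, had 6 and 14 against 11 and 17 counts, and its log2 fold change of 0.57 ± 0.52 (SE) turned to -0.15 when the counts of pseudogenes named for it were added and ran from 0.05 to 1.36 without replicate 1 or 2 of Il10-EGFP- cells.

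**Figure D4:**
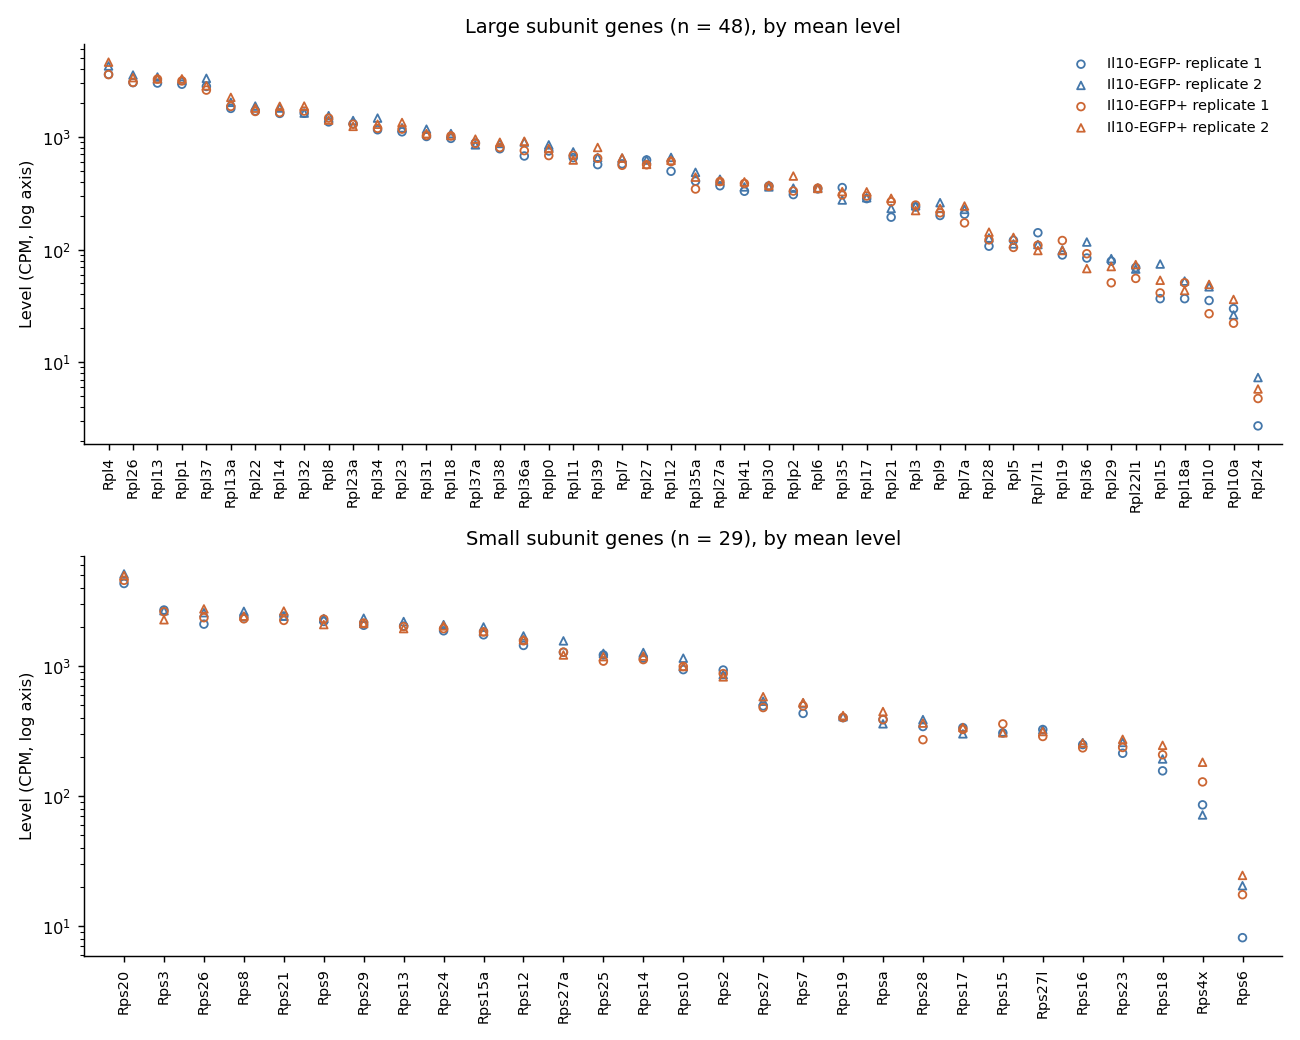
Level of 77 members in each library in CPM (log axis), ordered by mean level within the large and the small subunit. Blue marks Il10-EGFP- and orange Il10-EGFP+ libraries, circles replicate 1 and triangles replicate 2, and the 4 symbols of a gene lie close together except in Rps4x and the genes with few counts.

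The levels of the family were uneven although the ribosome holds its proteins in near-equal number. Mean levels ran from 5.13 CPM (Rpl24) to 4724 CPM (Rps20), a 920-fold span, with 31 members above 1000 CPM and 9 below 100 CPM. Of the members' 223554 counts, the 15 highest genes held at least 50% and the 10 highest 39.0%.
Near-identical copies of these genes bear on such values. Of the 79 members, 30 (38.0%) shared more than 50% of the 50-base stretches at their 3′ end with another annotated gene, against 2.79% of the 9519 other genes tested with a transcript, while 32 members shared none. The median mean count was 461.9 for the members that shared none, 811.8 for those that shared up to 50% and 270.8 for those that shared more. Rpl10, Rpl36a, Rpl9 and Rps27 shared the whole stretch. Rpl10 had 26 and 32 against 17 and 34 counts, while the pseudogene Rpl10-ps3, which holds the same 3′ end, had 186 and 157 against 129 and 162. The levels of Rpl10 and of the other members with shared ends, Rpl24 and Rps6 included, are therefore uncertain. The 272 pseudogenes named for a member took 0.0884 to 0.108% of counts, and adding them left the members' share at 7.87 and 8.69% against 7.79 and 8.42%. The median log2 fold change was 0.0044 for the 30 members with more than 50% shared and 0.0104 for the other 49.

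**Figure D5:**
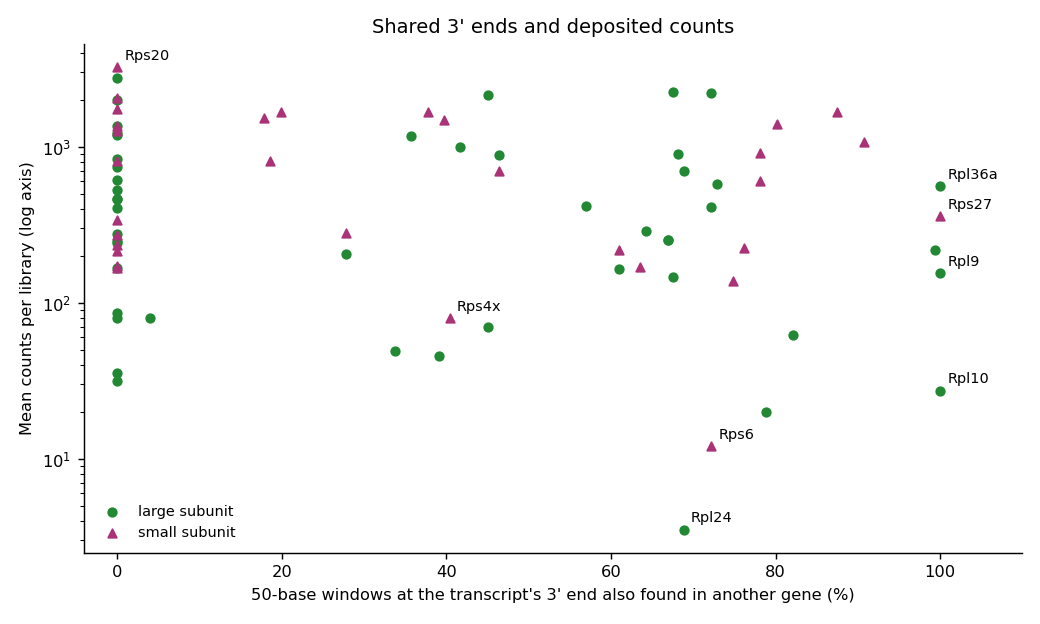
Mean counts per library of each member (log axis) against the percent of 50-base stretches in the last 200 bases of its transcripts that also occur in another annotated gene. Rpl24, Rps6, Rpl10a and Rpl10, the 4 members with the fewest counts, all lie above 50%, while other members with shared ends have over 1000 counts.

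Exons of other genes overlap some members, and the strand option of the counting was not given in the sources used here. Rps2 is overlapped from the opposite strand by Snhg9, which had 163 and 150 against 104 and 77 counts (log2 fold change -0.68, edgeR adjusted p = 0.0240). Rps18 is overlapped by Vps52, with 37 and 30 against 35 and 20 counts, Rpl35 by Arpc5l, with 110 and 78 against 107 and 114, and Rps25 by Trappc4, with 95 and 73 against 62 and 97. No annotated exon of another gene overlapped Rps4x.

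Some members have a paralog that can take their place in the ribosome or acts elsewhere, and in each pair the parent was counted more often. Rpl22 lay at 1794 ± 126 against 1747 ± 83.9 CPM (SD, n = 2 each) and Rpl22l1 at 68.2 ± 1.49 against 64.5 ± 12.8 CPM, with log2 fold changes of -0.04 and -0.07. Rpl7 lay at 614 ± 50.2 against 607 ± 64.5 CPM, a log2 fold change of -0.02, beside the -0.29 of Rpl7l1. Rps27 lay at 514 ± 30.2 against 529 ± 71.7 CPM and Rps27l, a target of p53, at 324 ± 0.353 against 300 ± 18.6 CPM, with log2 fold changes of 0.04 and -0.11. None of these genes passed the threshold, and the differences between paralogs were not tested.

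No related gene with another symbol passed the threshold. On a list that held Fau (a ribosomal protein made as a fusion with a ubiquitin-like protein), Rps3a1, Rpl36al and Rack1 (a scaffold on the small subunit), 0 of 5 passed edgeR's threshold, and 0 had an unadjusted p under 0.05. DESeq2 and limma on the rlog values also called 0, with 0 and 2 at an unadjusted p under 0.05. Rack1 had 2073 and 1923 against 1573 and 1682 counts (log2 fold change -0.19 ± 0.11 SE, edgeR adjusted p = 0.445) and Rps3a1 had 119 and 125 against 119 and 161 (0.30 ± 0.18 SE, 0.458).

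Around the family, 14 of the 89 genes tested on 7 pathway lists passed the edgeR threshold, 5 higher and 9 lower in Il10-EGFP+ cells, against the 2.35% and 1.74% of all genes given above. In both directions together, 6.71% of the genes averaging 20 counts or more and 12.6% of those averaging 200 or more passed, and the lists were chosen with earlier results known, so the count says nothing particular of them. DESeq2 called 5 of the 89, limma on the rlog values 7, and 8 to 11 passed in edgeR with 1 library left out. Vim, Tsr2, Gtpbp2, Il7r and Bach2 kept their call with each of the 4 libraries left out in turn. Of these, DESeq2 gave Tsr2 an adjusted p of 0.100, Il7r 0.0614 and Gtpbp2 no adjusted p, and limma on the rlog values gave Gtpbp2 0.0680. Myc, Mxd1 and Eif4b lost it without any 1 of them, with a highest edgeR adjusted p of 0.303, 0.235 and 0.132. The other 6 lost it without 1 to 3 of the libraries, namely Ccr7 (highest edgeR adjusted p = 0.0503, without Il10-EGFP+ replicate 2), Klf2 (0.294, without Il10-EGFP+ replicate 1), Max (0.0986), Eif4e (0.260), Tcf7 (0.268) and Npm1 (0.252). Neither DESeq2 nor limma on the rlog values called Eif4e, Klf2, Mxd1, Tcf7 or Myc, and DESeq2 gave Myc no adjusted p. Eif4b was not called by DESeq2, nor Npm1 by limma. Of the 23 mRNAs outside the family that are known to carry a TOP motif, 1 rose and 2 fell, with a median log2 fold change of -0.05. Vim, an intermediate filament protein, rose from 79 and 61 to 202 and 214 counts (log2 fold change 1.67 ± 0.18 SE). Eif4b, a cofactor of the eIF4A helicase, fell from 143 and 141 to 73 and 88 counts (-0.72 ± 0.19 SE), and Npm1, a nucleolar chaperone of ribosome assembly, fell from 2586 and 2765 to 1719 and 1985 (-0.43 ± 0.11 SE). Translation elongation factors Eef1a1 and Eef2, chosen after their values were seen, gave -0.07 and 0.08, within the range of the ribosomal protein genes.

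Of 19 tested genes of the mTORC1, LARP1 and S6 kinase arm, 0 rose and 1 fell, with a median of 0.05. Eif4e, the cap-binding factor, fell from 175 and 211 to 97 and 127 counts (log2 fold change -0.69 ± 0.18 SE, edgeR adjusted p = 0.0121). Larp1, which binds the TOP motif, had 284 and 240 against 152 and 217 counts (-0.41 ± 0.16 SE, edgeR adjusted p = 0.144) and Rps6kb1, an S6 kinase, had 68 and 61 against 69 and 92 (0.42 ± 0.22 SE, 0.360). Of 11 tested transcription factors known at ribosomal protein genes, 1 rose and 2 fell, with a median of 0.06. Myc fell from 27 and 19 to 7 and 7 counts (log2 fold change -1.59 ± 0.49 SE, edgeR adjusted p = 0.0465). Its partner Max fell from 229 and 264 to 123 and 154 counts (-0.73 ± 0.16 SE), and Mxd1, which pairs with Max in place of Myc, rose from 26 and 23 to 42 and 54 (1.07 ± 0.30 SE).

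Among 13 tested chaperones and loaders of single ribosomal proteins, 0 rose and 1 fell, and the median log2 fold change was -0.41, with 10 of 13 below 0. Tsr2, the escort of Rps26 into the small subunit, fell from 63 and 61 to 20 and 26 counts (-1.33 ± 0.29 SE, edgeR adjusted p = 0.0024). Bccip, a nuclear chaperone of Rpl23, and Aamp, a chaperone of Rpl10, had log2 fold changes of -0.52 ± 0.23 and -0.41 ± 0.21 (SE) with edgeR adjusted p of 0.233 and 0.340. Of 10 tested genes of ribosomal stress and the p53 arm, 1 rose and 0 fell, with a median of -0.22. Gtpbp2, a rescue factor of stalled ribosomes, rose from 4 and 2 to 27 and 19 counts (3.00 ± 0.59 SE), while Trp53 had 55 and 53 against 32 and 21 counts (-0.92 ± 0.30 SE, edgeR adjusted p = 0.0666).
Naive and quiescent T cell genes moved in both directions, with 2 of 14 higher, 3 lower and a median of 0.00049. Il7r rose from 19 and 18 to 50 and 50 counts (log2 fold change 1.53 ± 0.32 SE) and Klf2 from 44 and 37 to 94 and 64 (1.07 ± 0.25 SE). Bach2 fell from 138 and 128 to 46 and 67 (-1.13 ± 0.21 SE), Ccr7 from 265 and 285 to 155 and 131 (-0.84 ± 0.16 SE) and Tcf7 from 271 and 241 to 165 and 148 (-0.60 ± 0.16 SE). The summed B cell, myeloid, and erythroid and platelet markers given above were higher in both Il10-EGFP+ libraries. Their part in these differences was not tested.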

How the data were processed

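Messenger RNA was measured in 4 libraries of 3′ tags. The authors deposited raw counts of reads per Ensembl gene, made per the labels with STAR 2.5.2a and HTSeq 0.6.0 on GRCm38. The second deposited table holds rlog values, a log2 scale that the authors computed in DESeq2. Molecular identifiers served to judge duplicates from PCR and to take out the bias of amplification. The step that applied these identifiers to the counts is not given in the sources used here. The members and gene lists were chosen with earlier results of these data known.

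A gene needed 10 counts over the libraries to enter the edgeR 4.0.16 fit (R 4.3.3), which used TMM factors and the default quasi-likelihood fit, with Benjamini-Hochberg adjustment and a threshold of 0.05. The fit was tested on simulated data. Alternatives were DESeq2 1.42.0, limma 3.58.1 on rlog, other scalings and filters, a replicate block and each library left out. Levels are TMM-scaled CPM. No per-sample column was left unused. Symbols were lacking for 419 identifiers. The 3′ ends, overlaps and gene positions came from GENCODE M21, and start regions from RefSeq.

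Named members were those past the threshold, the 3 with the highest CPM, the 3 most positive and the 3 most negative per subunit, and paralogs. Pathway genes named were those past the threshold and otherwise up to 3 by p. Some genes are not reported here by name. The labels call the replicates mice and do not say whether equal numbers share a mouse, so p-values measure the spread between these libraries.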

Additional observations from a re-analysis of the deposited data

How the results depend on the processing

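With 2 libraries a population, the number of calls changed with the method and the threshold. Of the 79 members, the main edgeR fit called 1, DESeq2 called 0 of 77 with an adjusted p, limma on rlog called 0, and an unadjusted p under 0.05 called 4. Over all genes, DESeq2 called 112 of 5324, limma on rlog 197 and a threshold of 0.01 called 177, against 393. Pathway genes numbered 14, 5 with DESeq2 and 7 with limma on rlog. Leaving out each library in turn, which leaves 1 library in a population and assumes that it varies like the other population, called 0 to 1 members (0 without Il10-EGFP+ replicate 2), 201 to 264 genes and 8 to 11 pathway genes. The pathway counts under the alternatives were added after seeing the data.

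With a replicate block, edgeR called 1 member, 560 genes and 15 pathway genes, and DESeq2 called 0 members, 39 of 3461 genes and 2 pathway genes. The methods speak of a replicate pair, and the labels do not say that a number marks 1 mouse. The correlation of within-population differences was 0.0324 over 4965 genes and 0.139 over the members, so with 2 pairs the numbers were not shown to pair the libraries, nor shown not to. The share of counts within replicate numbers, added after seeing the data, differed by the same -0.167 points on average (exact sign-flip permutation p = 0.5).

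The members' median log2 fold change stayed within -0.0661 and 0.0810 under every alternative run. The share of counts, which differed by -0.167 points, gave 0.0218 points without the 3 most counted genes and -0.572 to 0.238 points with a library left out (0.238 without Il10-EGFP- replicate 2, 0.143 without Il10-EGFP+ replicate 1, -0.477 without Il10-EGFP+ replicate 2). Of 20 members followed singly, 10 kept their direction in all alternatives run. The log2 fold change turned to -0.0094 for Rps20 with library sizes only and -0.1523 for Rps6 with pseudogene counts added. With a library left out it ran from -0.0573 to 0.1234 for Rpl13, -0.1085 to 0.0379 for Rpl22, -0.2973 to 0.1119 for Rpl22l1, -0.1455 to 0.0809 for Rpl26, -0.1344 to 0.2336 for Rpl4, -0.1291 to 0.0905 for Rpl7, -0.1007 to 0.1452 for Rps20, -0.1028 to 0.1769 for Rps27 and -0.4259 to 0.0003 for Rps28. It ran from -0.3238 (without Il10-EGFP- replicate 1) to -0.0284 (without Il10-EGFP- replicate 2) for Rps27a and from -0.2372 to -0.0344 (without replicate 1 or 2 of Il10-EGFP+ cells) for Rps3, with no reversal. The cause of these changes was not tested.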
